A study of Rattus norvegicus with 172 samples.

Results

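The livers compared here came from 16 of the 70 rats of the study: 8 male Fischer 344 rats given 3-methylfuran at 1.0 mg/kg body weight per day, and 8 given 3-methylfuran at 0.075 mg/kg body weight per day, each for 90 days. These are the highest and the middle dose of 1 experiment, and they were set against each other directly, without the untreated rats. The same experiment held 8 rats at 0.02 and 8 control rats, and a separate furan experiment held the other 38 rats. The labels give no allele or transgene and no age. Beside the dose, only the rat numbers in the sample titles separate the 2 groups. Each rat gave 1 liver sample, whose poly(A) RNA was sequenced in 3 runs that were summed.

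Furan and its methylated relative 3-methylfuran form in heated food. In rodent liver furan is oxidised, mainly by the P450 enzyme CYP2E1, to a reactive unsaturated dialdehyde that binds thiols and amines of proteins and is caught by glutathione, and 3-methylfuran is oxidised to a dialdehyde that carries the methyl group. Rat liver meets such electrophiles with conjugating enzymes and conjugate exporters, many of them controlled by the transcription factor NRF2, and it replaces lost cells by division of hepatocytes. Comparing the doses with each other asks what the liver did over that step of dose, as distinct from what each dose did relative to untreated animals.

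Total counts were 12.8 to 24.3 M per rat at 1.0 (median 16.8 M) and 13.2 to 50.05 M at 0.075 (median 24.2 M). Of 32883 genes in the table, 11859 had enough counts to be tested. A gene is called here when its edgeR quasi-likelihood test gave a Benjamini-Hochberg adjusted p under 0.05 over all of these. At 1.0 relative to 0.075, 4078 genes were called (34.4% of those tested), 1976 higher (16.7%) and 2102 lower (17.7%). The changes were mostly small: the median absolute log2 fold change of the called genes was 0.38, and 429 of them differed by at least 2-fold, 310 higher and 119 lower. A test against a fold of 1.5 called 361 genes (3.04%), 238 higher and 123 lower. In 1094 genes (9.23%), 510 higher and the others lower, the 8 rats at 1.0 and the 8 at 0.075 did not overlap. These directions are relative to the TMM scaling of the libraries, whose factors were 0.996 to 1.166 at 1.0 and 0.911 to 0.949 at 0.075. Without it the median log2 fold change of all genes was 0.22 in place of 0, and 5649 genes were called higher and 687 lower.

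Levels are given in CPM, a gene's count scaled to the TMM-adjusted total of its library, as the lowest, highest and median of 8 rats. A signed number in parentheses after a gene is its log2 fold change, 1.0 over 0.075, with its SE where one follows (n = 8 rats each). Counts of called list members are to be read beside the shares of all genes, 16.7% called higher and 17.7% called lower. The tissue read as liver: the 11 hepatocyte markers tested summed to 153780 to 203517 CPM at 1.0 and 180497 to 207686 CPM at 0.075. Albumin itself (ENSRNOG00000002911) had 113400 to 155000 CPM at 1.0 (median 123800), against 135800 to 162500 CPM at 0.075 (median 146600), and missed the threshold (log2 fold change -0.20 ± 0.08 SE, adjusted p = 0.0675). Since these are whole livers, fewer cells of a type and less RNA per cell cannot be told apart.

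Genes of electrophile handling were higher at 1.0. Of the 20 tested members of a list of NRF2 and electrophile-response genes, 10 were called higher and 0 lower, with a median log2 fold change of 0.45 beside 0 for all genes. Gstp1 (ENSRNOG00000018237), the pi-class glutathione S-transferase whose appearance marks altered hepatocytes in rats, had 23.5 to 669.7 CPM at 1.0 (median 61.1), against 5.7 to 25.2 CPM at 0.075 (median 7.48). A single animal, ME587L, stood far above the other 7 of its group, which had 23.5 to 110.3 CPM, and rats MB549L and MB551L of the 0.075 group were above the other 6 of theirs, so the groups overlapped. The difference was called (log2 fold change 3.57 ± 0.75 SE, adjusted p = 0.00198), and without ME587L the log2 fold change was 2.41. In the 4 highest-numbered rats of each group alone, which hold ME587L, MB549L and MB551L, the adjusted p was 0.137.

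Abcc3 (ENSRNOG00000002948), which exports glucuronide and glutathione conjugates from hepatocytes into blood, had 17.6 to 72.4 CPM at 1.0 (median 27.5), against 1.92 to 13.9 CPM at 0.075 (median 3.11). No rat at 0.075 reached the lowest rat at 1.0, although MB549L (9.79) and MB551L (13.9) again came closest (log2 fold change 2.54 ± 0.47 SE, adjusted p = 0.000654). Ephx1 (ENSRNOG00000003515), the microsomal epoxide hydrolase, had 1248 to 2610 CPM at 1.0 (median 1654), against 580.4 to 1193 CPM at 0.075 (median 745), also without overlap (log2 fold change 1.06 ± 0.19 SE, adjusted p = 0.000438). Akr7a3, an aldo-keto reductase that reduces dialdehydes such as those of aflatoxin, had 297 to 1302 CPM at 1.0 (median 539), against 44.1 to 329.8 CPM at 0.075 (median 67.2). Only MB551L reached the range of the 1.0 group (log2 fold change 2.35 ± 0.51 SE, adjusted p = 0.00229). Genes of 2 aldehyde dehydrogenases moved with it: Aldh1a7 had 3.23 to 13.6 CPM at 1.0 (median 7.5), against 0.0711 to 3.47 CPM at 0.075 (median 0.318), and Aldh1a1 had 624 to 769 CPM at 1.0 (median 736), against 169 to 565 CPM at 0.075 (median 334) (log2 fold change 2.64 ± 0.60 SE, adjusted p = 0.00312 for Aldh1a7; log2 fold change 1.03 ± 0.22 SE, adjusted p = 0.00205 for Aldh1a1). The calls of Abcc3, Ephx1, Akr7a3 and Aldh1a7 were lost in the 4 highest-numbered rats of each group alone. That of Aldh1a1 was lost in the 4 lowest-numbered.

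In glutathione synthesis, Gclc, the catalytic subunit of the limiting enzyme, had 179 to 370.4 CPM at 1.0 (median 229.8), against 91.1 to 239 CPM at 0.075 (median 144), with overlapping groups (log2 fold change 0.72 ± 0.21 SE, adjusted p = 0.0143), while the log2 fold change of its partner Gclm was 0.13 and was not called. The selenium-dependent glutathione peroxidase gene Gpx2 (2.53), glutathione reductase Gsr (0.52) and the exporters Abcc2 (0.42) and Abcc4 (0.48 ± 0.11) were called higher. Members not called included Tkt (-0.01) and Keap1 (-0.14). Of 19 glutathione S-transferase genes 4 were called higher and 4 lower, near the shares of all genes (16.7% and 17.7%), and 9 and 2 without TMM: Gstm1 was 0.65 and Gstt3 0.59, but Gstm2 fell by 0.77 on the log2 scale (570.4 to 1013 CPM at 1.0 (median 740.5), against 1140 to 1535 CPM at 0.075 (median 1298), without overlap) and Gstz1 fell by 0.43. How reads shared between near-identical family members were counted is not stated in these sources, so single members of the Gst, Cyp2c, Cyp3a, Cyp4a, Mup and Akr families are uncertain.

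**Figure D1:**
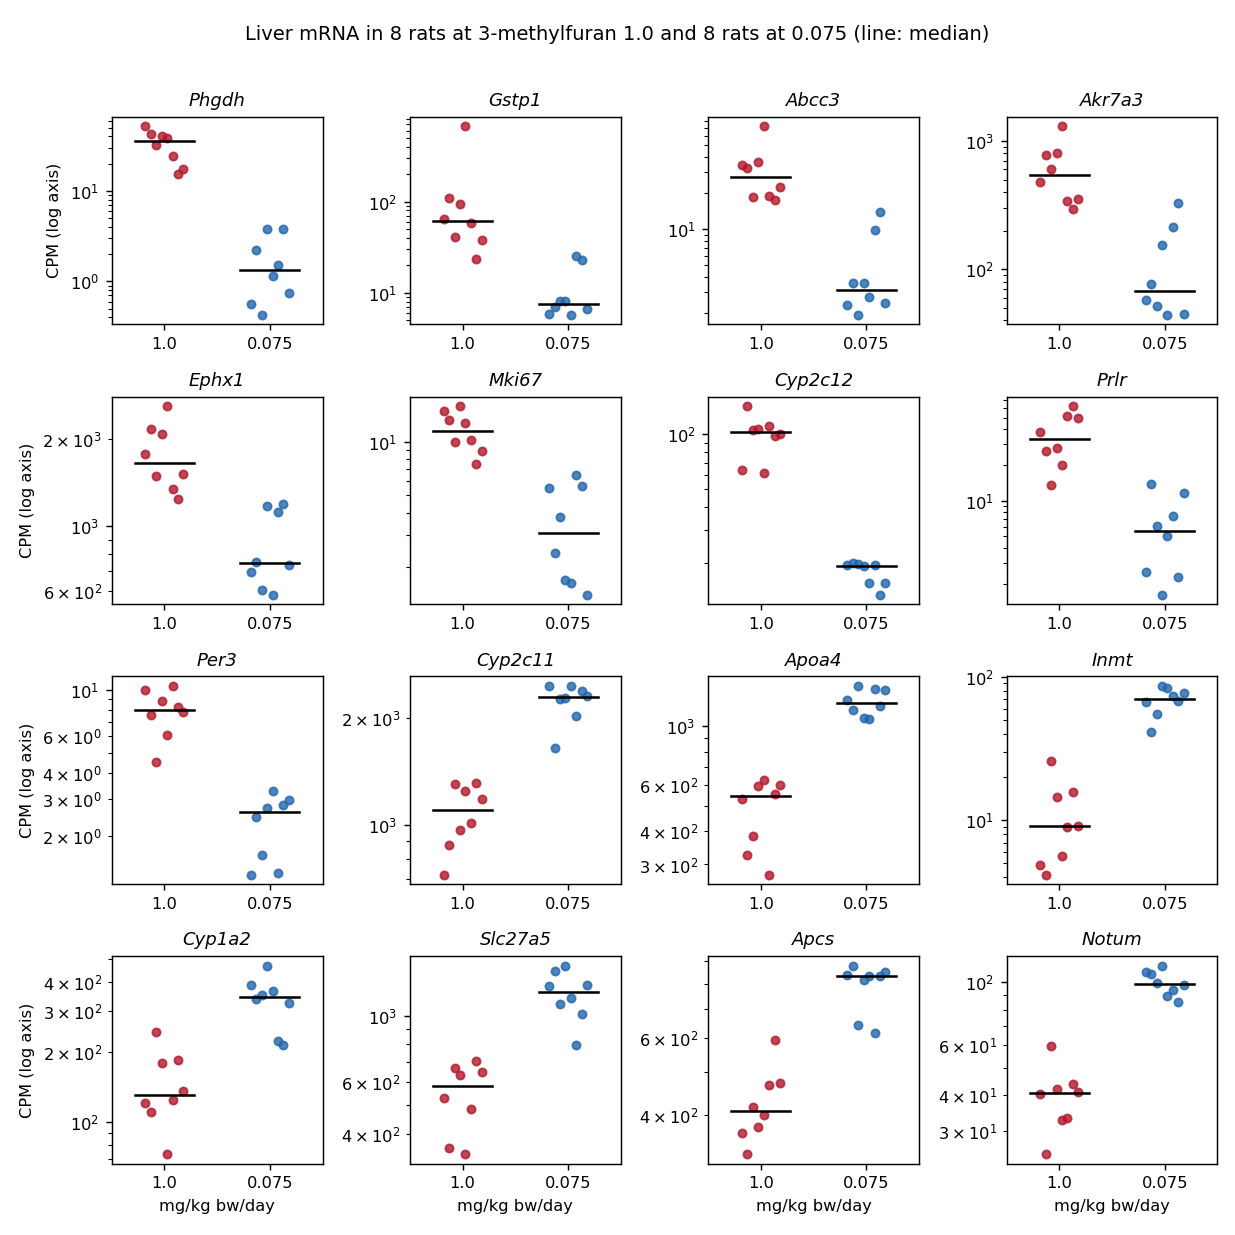
Each panel plots CPM per rat on a log axis for 1 gene, with the 8 rats at 3-methylfuran 1.0 in red on the left, the 8 rats at 0.075 in blue on the right and lines at the medians. Phgdh, Abcc3, Ephx1, Mki67, Cyp2c12, Per3, Cyp2c11, Inmt, Slc27a5, Apcs, Apoa4 and Notum separate fully, and Gstp1, Akr7a3, Prlr and Cyp1a2 overlap.

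Phgdh (ENSRNOG00000019328) makes serine's first precursor from a glycolysis intermediate. It had 15.4 to 52 CPM at 1.0 (median 35.7), against 0.426 to 3.82 CPM at 0.075 (median 1.34). Every rat at 1.0 was above every rat at 0.075 by a wide gap (log2 fold change 4.18 ± 0.41 SE, adjusted p = 2.49e-06). Of the next steps, Psat1 was called higher (0.93) and Psph was not called (-0.14). Mthfd1l, the mitochondrial formate-producing enzyme of one-carbon metabolism, had 1.25 to 5.42 CPM at 1.0 (median 2.72), against 0.205 to 0.711 CPM at 0.075 (median 0.449) (log2 fold change 2.64 ± 0.32 SE, adjusted p = 3.6e-06), and the cytosolic Mthfd1 had 208 to 286 CPM at 1.0 (median 241), against 137 to 177 CPM at 0.075 (median 168) (log2 fold change 0.56 ± 0.06 SE, adjusted p = 1.53e-06). Enzymes that draw on methionine and homocysteine went both ways. Cbs, the first enzyme of transsulfuration, had 165 to 234 CPM at 1.0 (median 194), against 255 to 319.5 CPM at 0.075 (median 292) (log2 fold change -0.60 ± 0.07 SE, adjusted p = 3.46e-06). Cth (-0.24), Mat1a (-0.28) and Ahcy (-0.22) were lower by smaller amounts, while Bhmt, which returns homocysteine to methionine, was higher (0.33) and Bhmt2 (-0.16) and Mat2a (0.13) were not called. Of 23 members tested 6 were called higher and 8 lower (10 and 1 without TMM), and the list's median of -0.13 turned to 0.09 without TMM.

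Genes of cell division were higher almost throughout. Of 29 tested genes of mitosis, 28 were called higher and 0 lower, with a median log2 fold change of 1.38, and the summed level of the list was 94.6 to 167 CPM at 1.0 (median 134), against 32.6 to 87.3 CPM at 0.075 (median 53.9). Mki67 (ENSRNOG00000028137), the proliferation antigen, had 7.5 to 15.8 CPM at 1.0 (median 11.4), against 1.39 to 6.54 CPM at 0.075 (median 3.08), without overlap (log2 fold change 1.64 ± 0.31 SE, adjusted p = 0.00067). Kif11, a spindle motor, had 3.77 to 6.83 CPM at 1.0 (median 5.41), against 0.968 to 2.65 CPM at 0.075 (median 1.92) (log2 fold change 1.51 ± 0.18 SE, adjusted p = 3.23e-06). Kif23, which acts in the last step of cell separation, had 0.875 to 2.35 CPM at 1.0 (median 1.4), against 0.211 to 0.639 CPM at 0.075 (median 0.443) (log2 fold change 1.63 ± 0.24 SE, adjusted p = 2.13e-05), and Foxm1, a transcription factor of the G2 and M phases, had 3.5 to 5.66 CPM at 1.0 (median 3.81), against 1.83 to 2.79 CPM at 0.075 (median 2.3) (log2 fold change 0.86 ± 0.13 SE, adjusted p = 3.26e-05). None of the 3 overlapped between groups, and Aurka (0.23) was the 1 member not called.

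Of 23 tested DNA replication genes, 20 were called higher and 0 lower, with a median of 0.59. Tyms, thymidylate synthase, had 8.01 to 13.8 CPM at 1.0 (median 9.9), against 3.62 to 5.72 CPM at 0.075 (median 4.96) (log2 fold change 1.06 ± 0.11 SE, adjusted p = 3.52e-07), and Tk1, thymidine kinase, had 20 to 27.8 CPM at 1.0 (median 22.6), against 9.56 to 14.9 CPM at 0.075 (median 12.2) (log2 fold change 0.95 ± 0.10 SE, adjusted p = 4.01e-07). Mcm3, a subunit of the replicative helicase, had 2.22 to 4.92 CPM at 1.0 (median 3.41), against 0.844 to 1.58 CPM at 0.075 (median 1.36) (log2 fold change 1.44 ± 0.18 SE, adjusted p = 4.76e-06). These 3 did not overlap, whereas Mcm7, Fen1 and Pola1 were not called. The G1 and S phase cyclin genes Ccne1 (1.64) and Ccne2 (0.59) were among the called. Ccnd1, cyclin D1, was not, with 35.9 to 75.4 CPM at 1.0 (median 49.8), against 31.4 to 48.5 CPM at 0.075 (median 42.5) (adjusted p = 0.0639, 95% interval of the log2 fold change 0.05 to 0.67), and the p53 target and cell cycle inhibitor Cdkn1a had 29.9 to 51.9 CPM at 1.0 (median 44.6), against 15.9 to 65.6 CPM at 0.075 (median 28.3) (adjusted p = 0.34, interval -0.19 to 0.80). Of 17 p53 targets 3 were called higher, the death receptor gene Fas (0.78 ± 0.15), Zmat3 (0.88 ± 0.18) and Bax (0.34), and 2 lower, Sesn2 (-0.37 ± 0.11) and Plk2 (-0.41). These counts were near or below the shares of all genes (16.7% and 17.7%). Without TMM 9 p53 targets were higher and 0 lower.

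The cell cycle counts were smaller in the 4 rats of each group with the highest numbers in their sample names, where 9 mitosis genes were called and the median log2 fold change was 1.03. The call of Mki67 was lost there. In the 4 lowest-numbered rats alone, 28 were called and the median was 1.63. In both sets 0 mitosis genes were called lower, and DNA replication had medians of 0.59 and 0.56 in these sets of rats.

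Promoters of these genes are shown because many mitotic genes are known to be controlled through CCAAT boxes, bound by NF-Y, together with the cell cycle homology region, TTTGAA, bound by the DREAM and MMB complexes. In RefSeq promoters of build GRCr8, from 250 bases before to 50 after the gene's start, 23 of the 29 mitosis genes had an entry. CCAAT on either strand was in 17 of these (73.9%), TTTGAA on either strand in 17 (73.9%), and both in 13 (56.5%). Over all 8745 promoters of tested genes the shares were 38.4%, 11.9% and 4.95%. Among 20 DNA replication promoters 13 held CCAAT (65.0%) and 1 held TTTGAA (5%). In the sequences, written 5′ to 3′ on the gene's strand, capitals mark CCAAT or its complement ATTGG, and TTTGAA or its complement TTCAAA, for 3 mitosis genes and for Mcm7, which has CCAAT alone.
Mki67 promoter (chr1:199952544-199952843, minus strand): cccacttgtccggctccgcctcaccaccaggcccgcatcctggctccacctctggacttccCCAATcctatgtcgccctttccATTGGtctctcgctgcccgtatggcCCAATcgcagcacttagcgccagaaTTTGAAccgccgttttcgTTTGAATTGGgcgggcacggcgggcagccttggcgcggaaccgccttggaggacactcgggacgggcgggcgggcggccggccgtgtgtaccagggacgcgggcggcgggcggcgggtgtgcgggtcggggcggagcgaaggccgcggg
Cdk1 promoter (chr20:19265043-19265342, plus strand): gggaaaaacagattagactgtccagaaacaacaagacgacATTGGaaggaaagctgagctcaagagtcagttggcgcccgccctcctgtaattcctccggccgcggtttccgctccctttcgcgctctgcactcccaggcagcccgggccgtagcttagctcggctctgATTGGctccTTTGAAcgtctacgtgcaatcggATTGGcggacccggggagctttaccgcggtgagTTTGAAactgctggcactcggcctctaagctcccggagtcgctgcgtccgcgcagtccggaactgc
Top2a promoter (chr10:84473044-84473343, minus strand): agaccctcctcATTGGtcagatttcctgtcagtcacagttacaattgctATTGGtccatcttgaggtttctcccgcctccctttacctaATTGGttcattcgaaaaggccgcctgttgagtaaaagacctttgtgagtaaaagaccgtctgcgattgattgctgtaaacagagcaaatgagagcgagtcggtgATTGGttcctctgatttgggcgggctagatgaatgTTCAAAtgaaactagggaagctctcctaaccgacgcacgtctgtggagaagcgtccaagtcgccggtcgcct
Mcm7 promoter (chr12:22163129-22163428, minus strand): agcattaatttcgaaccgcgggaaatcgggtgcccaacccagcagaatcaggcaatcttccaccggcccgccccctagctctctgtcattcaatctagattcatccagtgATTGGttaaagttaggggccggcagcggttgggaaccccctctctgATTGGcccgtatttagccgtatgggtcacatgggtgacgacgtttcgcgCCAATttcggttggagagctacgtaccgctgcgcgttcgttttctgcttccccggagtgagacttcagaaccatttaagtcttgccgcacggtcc
The Mki67 promoter held 4 matches of CCAAT and 2 of TTTGAA, of which 1 pair overlaps, Cdk1 held 3 and 2, Top2a 4 and 1, and Mcm7 3 and 0. Log2 fold changes were 1.64 ± 0.31 for Mki67, 1.44 for Cdk1, 1.72 for Top2a and 0.18 for Mcm7, the last not called. Other replication promoters with CCAAT and no TTTGAA belonged to called genes, among them Mcm3 (1.44), Mcm6 (1.54), Gins1 (1.35) and Uhrf1 (1.75). The printed promoters were picked after their values were seen, and a relation of motif to change was not tested.

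For the electrophile-response genes the motif searched was TGACNNNGC, the core of the antioxidant response element to which NRF2 binds with a small MAF partner. It was in 5 of 16 promoters with an entry (31.2%), against 15% of all 8745. Of these 5, Gpx2 (2.53) and Abcc2 (0.42) were called higher, and Gclm (0.13), Me1 (0.20) and Ugdh (0.39) were not called. Gpx2, whose 1 match lies on the opposite strand and is the stretch in capitals, is shown as the one of these 5 with the largest fold change.
Gpx2 promoter (chr6:101229984-101230283, minus strand): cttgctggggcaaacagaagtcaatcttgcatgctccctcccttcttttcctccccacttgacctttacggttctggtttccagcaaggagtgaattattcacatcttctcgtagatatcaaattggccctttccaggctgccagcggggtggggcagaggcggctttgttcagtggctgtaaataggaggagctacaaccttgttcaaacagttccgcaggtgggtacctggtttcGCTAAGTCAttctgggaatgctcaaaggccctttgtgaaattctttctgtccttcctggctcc
The promoters of Gclc, Akr7a3, Ephx1 and Aldh1a1 held no match in this window, which says nothing of elements farther away.

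The pattern of sex-biased liver genes differed between the doses in these male rats. Rat liver expresses sets of P450 and other genes that differ between males and females under the control of pulsed or continuous growth hormone. Cyp2c12 (ENSRNOG00000047945), a steroid hydroxylase typical of female rats, had 61.2 to 142 CPM at 1.0 (median 103), against 13.4 to 20 CPM at 0.075 (median 19.2), so the lowest rat at 1.0 was well above the highest at 0.075 (log2 fold change 2.48 ± 0.16 SE, adjusted p = 2.84e-08). Prlr, the prolactin receptor, which is also higher in female rat liver, had 13.6 to 62.8 CPM at 1.0 (median 32.9), against 1.61 to 13.7 CPM at 0.075 (median 5.59), with the groups touching at 13.6 and 13.7 CPM (log2 fold change 2.55 ± 0.44 SE, adjusted p = 0.000412). Its call was lost in the 4 lowest-numbered rats of each group alone. On a scale common to all 32 rats its mean was 8.43 CPM in controls, 9.28 at 0.02, 5.99 at 0.075 and 34.5 at 1.0. The highest control had 28.5 CPM, inside the range at 1.0 (13.0 to 59.6). Cyp2c11 (ENSRNOG00000052810), the main male-specific P450, had 723 to 1310 CPM at 1.0 (median 1098), against 1645 to 2472 CPM at 0.075 (median 2300), without overlap (log2 fold change -1.05 ± 0.11 SE, adjusted p = 1.02e-06).

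Other genes with higher expression in male rats were lower at 1.0. Hsd3b5 (-0.94), Cyp2c13 (-0.42) and Sult1e1 (-0.80) were called lower. Mup4, of the urinary protein family, is listed under 2 gene identifiers, with log2 fold changes of -2.11 ± 0.36 and -2.03 ± 0.39. Car3, carbonic anhydrase III, had 509.9 to 1800 CPM at 1.0 (median 891), against 1707 to 3768 CPM at 0.075 (median 2616) (log2 fold change -1.53 ± 0.24 SE, adjusted p = 0.000118). Its highest rat at 1.0, ME584L, was just inside the range of the 0.075 group. Of the growth hormone pathway, Ghr, its receptor, had 385 to 484 CPM at 1.0 (median 454), against 537 to 643 CPM at 0.075 (median 611) (log2 fold change -0.44 ± 0.06 SE, adjusted p = 8.45e-06), and Igf1 (-0.37), Igfals (-0.43), Stat5a (-0.44) and Stat5b (-0.36) were called lower. In all, 10 of 18 tested members of the list were called lower and 2 higher (5 and 3 without TMM), with a median of -0.42.

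Xenobiotic P450 genes were mostly lower, 16 of 28 called lower and 5 higher (13 and 8 without TMM), with a median of -0.41. Cyp2e1 (ENSRNOG00000012458), the enzyme that activates furan, was among the 5, with 2757 to 3742 CPM at 1.0 (median 3164), against 1618 to 3123 CPM at 0.075 (median 2343), overlapping groups and a small difference (log2 fold change 0.44 ± 0.11 SE, adjusted p = 0.0045). Cyp1a2 had 73.1 to 243 CPM at 1.0 (median 130.3), against 215 to 468 CPM at 0.075 (median 344) (log2 fold change -1.19 ± 0.22 SE, adjusted p = 0.000669). Cyp2d1 had 424 to 639 CPM at 1.0 (median 553), against 877 to 1200 CPM at 0.075 (median 1028) (log2 fold change -0.91 ± 0.08 SE, adjusted p = 6.44e-08), and Cyp3a18, which is higher in male rats, had 249.8 to 438 CPM at 1.0 (median 294), against 579 to 829.7 CPM at 0.075 (median 683) (log2 fold change -1.10 ± 0.11 SE, adjusted p = 3.52e-07). Both Cyp2d1 and Cyp3a18 separated the groups fully. Against this direction went Cyp2c24, with 1.25 to 6.26 CPM at 1.0 (median 3.9), against 0.18 to 0.878 CPM at 0.075 (median 0.353) (log2 fold change 3.09 ± 0.34 SE, adjusted p = 2.06e-06), and Cyp3a62 (1.34). Nr1i3, the nuclear receptor CAR that controls Cyp2b genes, was lower (-0.86), as was Cyp2b2 (-0.89).

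Of the conjugating enzymes, Inmt, which methylates indole amines, had 4.18 to 26 CPM at 1.0 (median 9.09), against 41.2 to 86.7 CPM at 0.075 (median 70.3), a separation by a wide gap (log2 fold change -2.63 ± 0.33 SE, adjusted p = 2.46e-05). Sult1c3, a sulfotransferase, had 68.1 to 141 CPM at 1.0 (median 107), against 258 to 354 CPM at 0.075 (median 318) (log2 fold change -1.51 ± 0.14 SE, adjusted p = 3.67e-07). Tpmt, thiopurine methyltransferase, went the other way (log2 fold change 0.45 ± 0.07 SE, adjusted p = 2.52e-05), and of 18 members tested 3 were called higher and 6 lower (7 and 5 without TMM). The share called higher was near that of all genes (16.7%), and 17.7% of all genes were called lower.

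Zonal genes did not move together. Notum, a secreted Wnt inhibitor of the pericentral zone, had 24.7 to 59.6 CPM at 1.0 (median 40.6), against 85.1 to 114 CPM at 0.075 (median 98.6) (log2 fold change -1.33 ± 0.13 SE, adjusted p = 9.08e-07), and Gulo, the last enzyme of vitamin C synthesis, had 492 to 606 CPM at 1.0 (median 554), against 648 to 932 CPM at 0.075 (median 840.4) (log2 fold change -0.58 ± 0.07 SE, adjusted p = 2.52e-06), both without overlap. Oat (-1.12), Glul (-0.64) and the factor Tbx3 (-0.81) were also called lower, while the ammonium channel gene Rhbg (0.97) was higher and Axin2 (-0.14) and Lgr5 (-0.46) were not called. That made 8 of 16 pericentral genes lower and 2 higher (5 and 2 without TMM), beside 5 of 15 periportal genes lower and 1 higher (1 and 4 without TMM). Among periportal genes G6pc, glucose-6-phosphatase, had 135 to 364 CPM at 1.0 (median 252), against 211 to 703 CPM at 0.075 (median 548.1) (log2 fold change -1.08 ± 0.25 SE, adjusted p = 0.00308), and Aldh1b1, a mitochondrial aldehyde dehydrogenase, had 31.7 to 59.4 CPM at 1.0 (median 43), against 10.4 to 20.4 CPM at 0.075 (median 18) (log2 fold change 1.41 ± 0.16 SE, adjusted p = 3.23e-06).

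Bile acid genes were mostly lower. Of 21 tested, 13 were called lower and 3 higher (9 and 3 without TMM), with a median of -0.37. Cyp7a1, the rate-limiting enzyme, had 28.1 to 151 CPM at 1.0 (median 57.5), against 32.9 to 192 CPM at 0.075 (median 72.3) and was not called (95% interval of the log2 fold change -1.20 to 0.45, adjusted p = 0.496). The conjugation enzymes were called: Slc27a5, the bile acid CoA ligase, had 342 to 704 CPM at 1.0 (median 579.7), against 797 to 1472 CPM at 0.075 (median 1200) (log2 fold change -1.11 ± 0.16 SE, adjusted p = 3.96e-05), and Baat, which joins bile acids to taurine or glycine, had 797 to 1071 CPM at 1.0 (median 910.3), against 1230 to 1591 CPM at 0.075 (median 1477) (log2 fold change -0.62 ± 0.08 SE, adjusted p = 4.15e-06). The uptake transporter genes Slco1a1 (-0.93 ± 0.11), Slco1a4 (-0.84), Slco1b2 (-0.59) and Slc10a1 (-0.46) and the bile salt pump gene Abcb11 (-0.51) were lower as well. The sterol exporter genes Abcg5 (1.74) and Abcg8 (1.73) and the phospholipid flippase gene Abcb4 (0.62) were the 3 called higher.

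In fatty acid synthesis 6 of 14 genes were called lower and 1 higher (3 and 3 without TMM). Fasn, fatty acid synthase, had 260.2 to 549.2 CPM at 1.0 (median 393), against 322 to 2318 CPM at 0.075 (median 719), and the groups overlapped (log2 fold change -1.35 ± 0.41 SE, adjusted p = 0.0188). Its call was lost under limma voom (adjusted p = 0.0619) and in the 4 lowest- and the 4 highest-numbered rats of each group alone. Scd, stearoyl-CoA desaturase, had 123 to 1914 CPM at 1.0 (median 1146), against 854 to 8103 CPM at 0.075 (median 2959), likewise overlapping (log2 fold change -1.58 ± 0.52 SE, adjusted p = 0.0275). The call of Scd rested on single animals: the adjusted p was 0.0616 without MB549L and 0.054 without ME583L. Acaca, acetyl-CoA carboxylase, had 61.1 to 105 CPM at 1.0 (median 78.2), against 103 to 209.9 CPM at 0.075 (median 145) (log2 fold change -0.89 ± 0.15 SE, adjusted p = 0.000155), and Elovl2, an elongase of polyunsaturated fatty acids, was the 1 called higher (log2 fold change 0.92 ± 0.16 SE, adjusted p = 0.000305). In cholesterol synthesis 2 of 24 genes were called higher and 5 lower (4 and 2 without TMM), with the sterol isomerase gene Ebp among the lower (log2 fold change -0.61 ± 0.07 SE, adjusted p = 8.71e-07). The share called higher was below that of all genes (16.7%), and the share called lower was near it (17.7%). The list medians of cholesterol synthesis (-0.17), fatty acid oxidation (-0.15), hepatocyte factors (-0.16), interferon response (-0.20) and periportal genes (-0.20) each turned positive without TMM.

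Among 32 fatty acid oxidation and PPAR alpha genes, 13 were called lower and 2 higher, but 5 lower and 8 higher without TMM. Cyp4a2, a fatty acid hydroxylase, had 478 to 1277 CPM at 1.0 (median 854), against 1123 to 2957 CPM at 0.075 (median 2154) (log2 fold change -1.34 ± 0.23 SE, adjusted p = 0.000291), while Cpt1a (-0.12) was not called. Apolipoprotein genes split. Apoa1, of high density lipoprotein, had 2545 to 3671 CPM at 1.0 (median 3138), against 966 to 1796 CPM at 0.075 (median 1516) (log2 fold change 1.11 ± 0.11 SE, adjusted p = 4.18e-07). Apoa4 had 275 to 623 CPM at 1.0 (median 541.9), against 1067 to 1419 CPM at 0.075 (median 1222) (log2 fold change -1.35 ± 0.15 SE, adjusted p = 3.75e-06), and Apoc3, an inhibitor of lipoprotein lipase, had 2341 to 3402 CPM at 1.0 (median 2974), against 4608 to 5660 CPM at 0.075 (median 5117) (log2 fold change -0.81 ± 0.08 SE, adjusted p = 2.17e-07). All 3 separated the groups fully, Apoa1 upward and the other two downward. In glucose metabolism 10 of 21 genes were lower and 2 higher (5 and 4 without TMM), with Gckr, Pygl and Pc between -0.50 and -0.59.

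**Figure D2:**
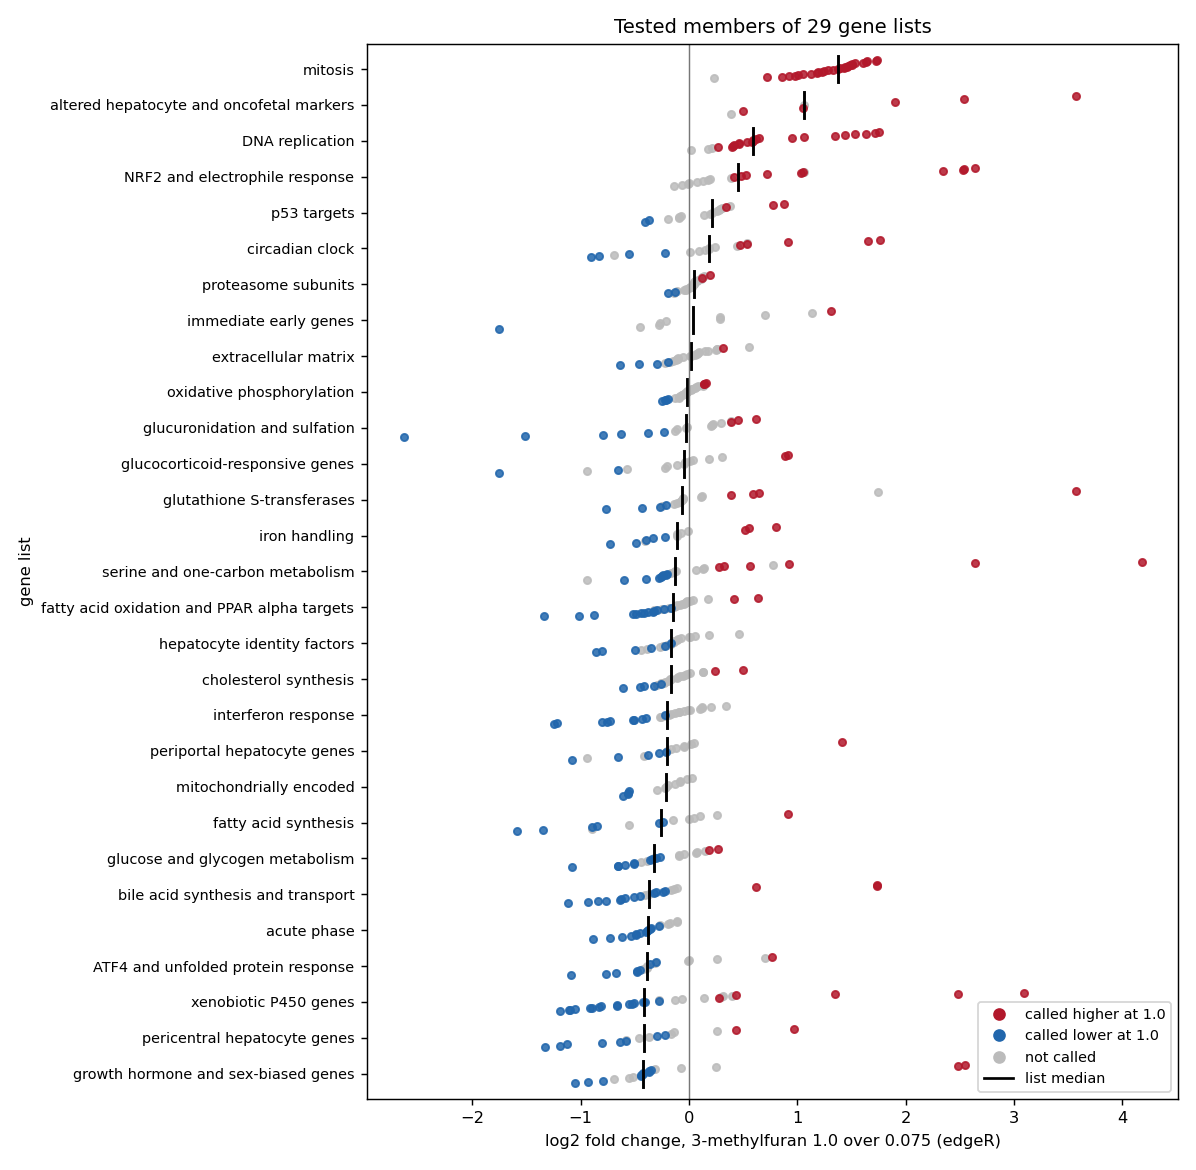
Each row is 1 of 29 gene lists, and each point is a tested member placed by its edgeR log2 fold change, 3-methylfuran 1.0 over 0.075; red is called higher, blue called lower and grey not called, and black lines are list medians. Mitosis and DNA replication lie to the right almost throughout, and acute phase members all lie below 0; the medians of 11 lists near 0 change sign without TMM.

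Acute phase and endoplasmic reticulum genes had more calls lower than higher. Not all transcripts of secreted hepatocyte proteins went this way: Apoa1 (1.11 ± 0.11) and Afp (0.50 ± 0.05) were higher and Alb was not called. In the acute phase list 13 of 18 were called lower and 0 higher (6 lower without TMM), with a median of -0.38. Apcs, serum amyloid P, had 324 to 593 CPM at 1.0 (median 407), against 615 to 879.6 CPM at 0.075 (median 833) (log2 fold change -0.89 ± 0.11 SE, adjusted p = 3.79e-06), and Itih3, an inter-alpha-trypsin inhibitor chain, had 3393 to 4706 CPM at 1.0 (median 4184), against 5824 to 6996 CPM at 0.075 (median 6571) (log2 fold change -0.62 ± 0.07 SE, adjusted p = 1.97e-06). Neither overlapped. Hamp, the iron hormone hepcidin, was -0.73, with Tfr2 (-0.40 ± 0.06) and Hfe (-0.34 ± 0.08) lower and the ferritin gene Ftl1 (0.56) and the transferrin receptor gene Tfrc (0.51) higher. Genes of the endoplasmic reticulum were lower, 8 of 18 in the list of ATF4 and unfolded protein response: Sdf2l1 had 9.25 to 14.8 CPM at 1.0 (median 11.3), against 19.4 to 27.9 CPM at 0.075 (median 25.1) (log2 fold change -1.09 ± 0.09 SE, adjusted p = 4.3e-08) and Manf had 68.2 to 83.5 CPM at 1.0 (median 76.9), against 108 to 136 CPM at 0.075 (median 120.2) (log2 fold change -0.67 ± 0.06 SE, adjusted p = 5.41e-08). The asparagine synthetase gene Asns was the 1 called higher (0.77). Without TMM 6 members of this list were called lower and 2 higher.

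Interferon response genes were lower in 10 of 26 members and higher in 0 (8 and 2 without TMM). Oas1a, an RNA sensor, had 3.32 to 8.61 CPM at 1.0 (median 5.87), against 10.5 to 15.8 CPM at 0.075 (median 13.6) (log2 fold change -1.25 ± 0.14 SE, adjusted p = 1.92e-06), and Isg15 (-0.76) and Irf7 (-0.50) were lower too, while Mx1 (0.10) was not called. The proteasome list had 2 of 25 members higher and 2 lower, but 21 higher and 0 lower without TMM. Oxidative phosphorylation had 3 of 27 higher and 4 lower, but 19 and 0 without TMM, the members called with TMM lying between -0.25 (Sdha) and 0.16 (Uqcrc1). With TMM these proteasome and oxidative phosphorylation counts were below the shares of all genes (16.7% higher and 17.7% lower). Of 23 hepatocyte identity factors, 6 were lower and 0 higher (2 and 0 without TMM), Rxra (-0.50 ± 0.07) and Nr1i3 among them, while Hnf4a (-0.24) and Cebpa (-0.10) were not called. Over all genes 17.7% were lower.

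Some epithelial genes were called higher. Krt8, a keratin of hepatocytes and duct cells, had 274 to 423 CPM at 1.0 (median 369.9), against 134 to 201 CPM at 0.075 (median 159) (log2 fold change 1.16 ± 0.09 SE, adjusted p = 2.51e-08), and its partner Krt18 had 348 to 574 CPM at 1.0 (median 457), against 170.1 to 273 CPM at 0.075 (median 219) (log2 fold change 1.05 ± 0.11 SE, adjusted p = 5.09e-07). Epcam, an adhesion molecule of bile duct and progenitor cells, had 18.6 to 27.3 CPM at 1.0 (median 21.3), against 5.68 to 11.3 CPM at 0.075 (median 7.92) (log2 fold change 1.4 ± 0.12 SE, adjusted p = 5.05e-08). Krt8, Krt18 and Epcam each separated the groups. Of the 7 cholangiocyte markers tested, Epcam, Cldn7 (1.3 ± 0.24), Bicc1 (0.94 ± 0.21) and Anxa13 (0.78) were called higher, while the duct keratin gene Krt19 (-0.23) and Slc4a2 (-0.02) were not. The list summed to 94.6 to 127 CPM at 1.0, against 81.4 to 98.6 CPM at 0.075, and its part in the keratin values was not tested. Altered hepatocyte markers were higher in 5 of 7: beside Gstp1, Abcc3 and Ephx1 these were Cd24 (2.3 to 4.8 CPM at 1.0 (median 2.96), against 0.451 to 1.42 CPM at 0.075 (median 0.833); log2 fold change 1.91 ± 0.20 SE, adjusted p = 7.1e-07) and Afp (31.1 to 37.3 CPM at 1.0 (median 34.2), against 20.7 to 25.4 CPM at 0.075 (median 24.8); log2 fold change 0.50 ± 0.05 SE, adjusted p = 9.11e-07).

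Other cell types showed few calls. Matrix genes had 1 of 26 higher and 4 lower (8 and 1 without TMM), the lower share near that of all genes (17.7%). Col1a1, the main fibrillar collagen, had 3.17 to 9.58 CPM at 1.0 (median 4.9), against 3.16 to 9.16 CPM at 0.075 (median 6.52) (95% interval of the log2 fold change -0.66 to 0.42, adjusted p = 0.761). Of 13 stellate cell markers 0 were higher and 1 lower (Tagln, -0.43 ± 0.15, a call that 13 of the alternative settings took away), and of 14 sinusoidal endothelial markers 0 were called in either direction (3 and 2 higher in these lists without TMM). Macrophage markers had Gpnmb higher (19.1 to 50.8 CPM at 1.0 (median 25.9), against 10.4 to 18.4 CPM at 0.075 (median 15.1); log2 fold change 0.95 ± 0.20 SE, adjusted p = 0.00169) and Cd14 lower (-0.53 ± 0.13), with 13 of 15 not called. Cd8a was the 1 called member of 6 T and NK cell markers (0.71 ± 0.26; adjusted p = 0.0384), and 11 of the alternative settings took its call away. Among adipocyte markers Fabp4 was higher (1.54 ± 0.22) and Cidec lower (-0.40 ± 0.06). Slc4a1 was the 1 red blood cell marker called (-0.93 ± 0.16), and 0 members were called of the 2 B and plasma cell, 1 neutrophil and 1 pancreatic acinar markers tested.

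Clock genes differed in both directions. Per3 (ENSRNOG00000018413) had 4.52 to 10.4 CPM at 1.0 (median 8.02), against 1.31 to 3.3 CPM at 0.075 (median 2.6) (log2 fold change 1.76 ± 0.20 SE, adjusted p = 2.43e-06), and Dbp, a clock-controlled activator, had 5.37 to 9.89 CPM at 1.0 (median 7.67), against 1.54 to 3.55 CPM at 0.075 (median 2.33) (log2 fold change 1.65 ± 0.16 SE, adjusted p = 1.87e-07), both without overlap. Npas2, a partner of the activator Arntl, had 14.3 to 24.6 CPM at 1.0 (median 18.5), against 31.4 to 42.3 CPM at 0.075 (median 34.8) (log2 fold change -0.91 ± 0.11 SE, adjusted p = 2.38e-06), Nfil3 was -0.83 and Arntl -0.22 ± 0.05. In all 5 of 18 clock genes were called higher and 4 lower, and 11 and 3 without TMM. Over all genes 16.7% were called higher and 17.7% lower. The labels give no time of day for the samples.

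Several of the largest differences were in genes less often described in liver. Prr32, which encodes a proline-rich protein, had 14.9 to 33.3 CPM at 1.0 (median 23.6), against 0.646 to 3.39 CPM at 0.075 (median 1.44) (log2 fold change 3.79 ± 0.26 SE, adjusted p = 5.61e-08). Erich5 had 10.2 to 22.3 CPM at 1.0 (median 13.5), against 0.807 to 2.79 CPM at 0.075 (median 1.8) (log2 fold change 3.01 ± 0.23 SE, adjusted p = 6.99e-08), and Ica1, named for an islet cell antigen, had 4.96 to 9.11 CPM at 1.0 (median 6.84), against 0.352 to 1.5 CPM at 0.075 (median 0.753) (log2 fold change 2.87 ± 0.20 SE, adjusted p = 1.7e-08). None of these 3 overlapped between groups. Gucy2c, the guanylate cyclase receptor of the intestine, had 16 to 70 counts per rat at 1.0, against 0 to 4 counts at 0.075 with 5 of the 8 rats at 0. Tsx was low throughout, with 0.424 to 6.45 CPM at 1.0 (median 3.56), against 0.0506 to 1.258 CPM at 0.075 (median 0.336) (log2 fold change 2.77 ± 0.53 SE, adjusted p = 0.000678).

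The largest decreases included Gimd1, with 0.726 to 3.96 CPM at 1.0 (median 1.38), against 4.36 to 22.8 CPM at 0.075 (median 13) (log2 fold change -2.93 ± 0.33 SE, adjusted p = 5.96e-06), and Nox4, an NADPH oxidase, with 1.6 to 10.3 CPM at 1.0 (median 3.45), against 12.9 to 39.3 CPM at 0.075 (median 21.7) (log2 fold change -2.57 ± 0.33 SE, adjusted p = 2.94e-05). Akr1c1, an aldo-keto reductase, had 6.95 to 16.5 CPM at 1.0 (median 12.4), against 28.4 to 93.1 CPM at 0.075 (median 41.5) (log2 fold change -2.01 ± 0.24 SE, adjusted p = 1.34e-05), and Rgs16, a regulator of G proteins, had 1.88 to 12.1 CPM at 1.0 (median 7.37), against 17.7 to 43.9 CPM at 0.075 (median 23.9) (log2 fold change -2.0 ± 0.40 SE, adjusted p = 0.00124). Groups did not overlap in these 4. Srms, a tyrosine kinase gene, and Sez6 also separated the groups (-1.95 ± 0.34 and -1.93 ± 0.26). In Stac3 (-1.99 ± 0.42) 1 rat at 1.0, ME584L, lay in the 0.075 range, and in Tenm2 (-1.99 ± 0.52) 5 did. In abundant genes Ddah1, which breaks down methylated arginine, was higher (161 to 208 CPM at 1.0 (median 196), against 65 to 152 CPM at 0.075 (median 108); log2 fold change 0.78 ± 0.13 SE, adjusted p = 0.000112).

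Over the whole experiment, 0.075 lay beside the lower doses in several genes. Mean levels on a scale common to all 32 rats (± SD, n = 8 each) put Phgdh at 1.05 ± 0.764 CPM in controls, 1.09 ± 0.656 at 0.02, 1.69 ± 1.3 at 0.075 and 31.4 ± 12.3 at 1.0. For Cyp2c12 they were 13.6 ± 2.81 CPM in controls, 16 ± 4.94 at 0.02, 16.9 ± 2.38 at 0.075 and 93.7 ± 24.8 at 1.0. Apoa1 had 1362 ± 268 CPM in controls, 1457 ± 297 at 0.02, 1379 ± 283 at 0.075 and 2990 ± 342 at 1.0. In each of these genes the step between 0.075 and 1.0 held nearly the whole span of the 4 means. Inmt was graded, with 99.7 ± 50.9 CPM in controls, 83 ± 29.8 at 0.02, 65.4 ± 14.1 at 0.075 and 10.7 ± 7.06 at 1.0. Its mean at 0.075 was below those of the 2 lower groups, by less than the SD of the controls. The authors' deposited adjusted p for Inmt at 0.075 over controls was 0.431. Their fold for it was 0.988, nearer to no change than the means given here, so deposited folds are not ratios of these means. Among the named genes, those under 0.05 there were Cidec (fold 0.794, adjusted p = 1.83e-05), Sesn2 (fold 0.786, adjusted p = 0.0269) and Fas (fold 1.34, adjusted p = 0.0309).

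Per1 and Egr1 had another order of means. Per1, a clock gene induced by glucocorticoids, had 8.68 to 15.8 CPM at 1.0 (median 11.8), against 2.6 to 14 CPM at 0.075 (median 5.65) (log2 fold change 0.91 ± 0.26 SE, adjusted p = 0.0131), but over the experiment 13.3 ± 6.84 CPM in controls, 8.44 ± 6.07 at 0.02, 6.15 ± 3.44 at 0.075 and 11.4 ± 2.1 at 1.0, so the 0.075 mean was the lowest of the 4. Egr1, an early growth response factor, was called higher at 1.0 (log2 fold change 1.31 ± 0.34 SE, adjusted p = 0.00603), though not with all 32 rats in the fit (adjusted p = 0.0529), with 4.52 ± 3.63 CPM in controls, 8.78 ± 8.99 at 0.02, 2.65 ± 1.79 at 0.075 and 6.44 ± 2.03 at 1.0, and again 0.075 was the lowest mean. Dusp1, a phosphatase of MAP kinases, had 14.5 to 67.8 CPM at 1.0 (median 39.5), against 19.7 to 341 CPM at 0.075 (median 77.8) (log2 fold change -1.76 ± 0.56 SE, adjusted p = 0.0256). The adjusted p was 0.055 with the order of rat numbers as a covariate, 0.06 without MB541L and 0.0512 without ME583L. Untreated rats and rats at 0.02 share no animal with the main comparison. Between these groups edgeR called 0 of 11278 genes (0%), with 766 at an unadjusted p under 0.05, 29 called by DESeq2 and 13 called without the filter on low counts. In the authors' deposited table, 5522 of 18604 genes had an adjusted p under 0.05 at 1.0 over controls and 268 at 0.075 over the same controls.

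**Figure D3:**
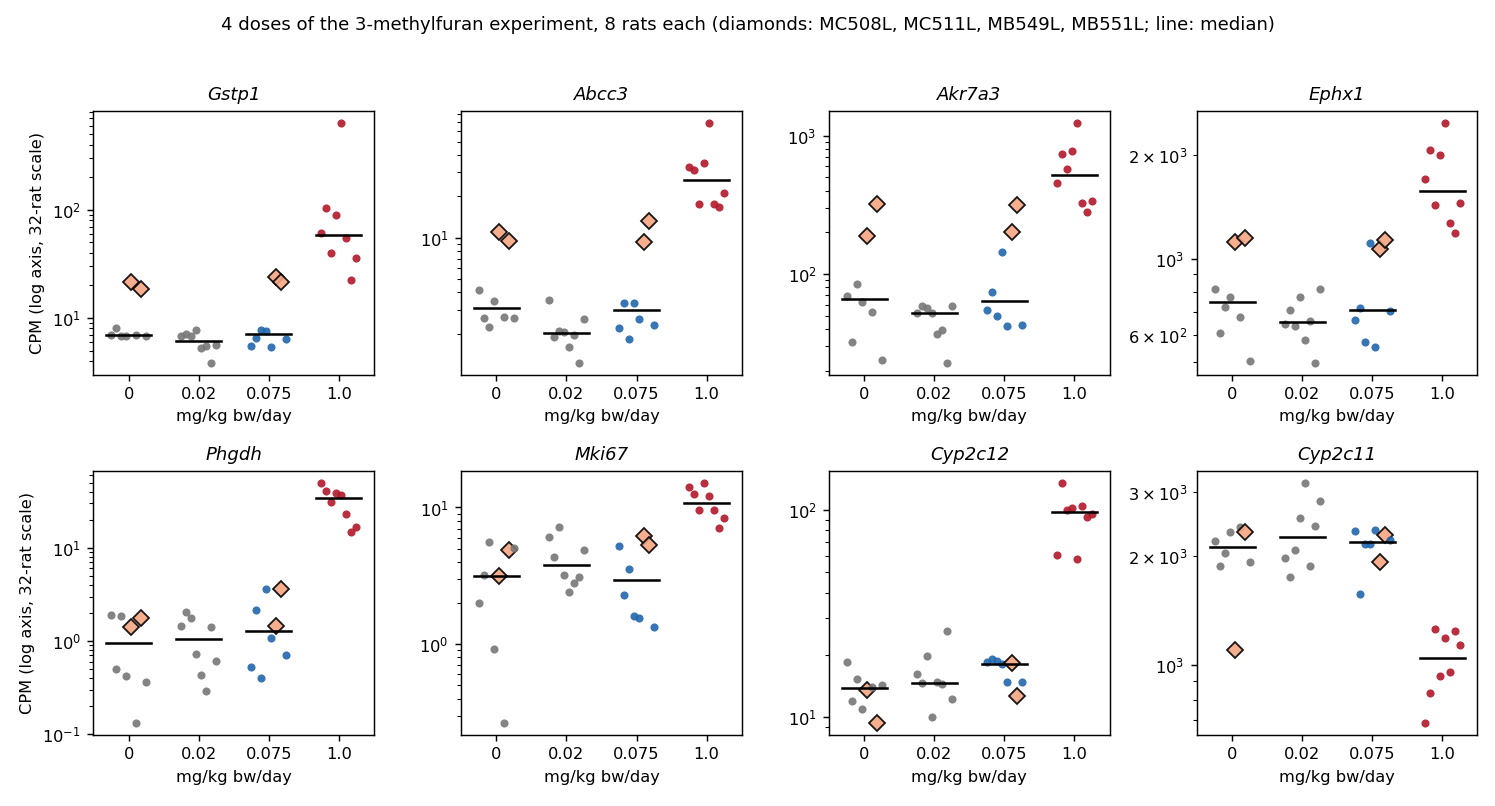
CPM per rat on a log axis for 8 genes at the 4 doses of the 3-methylfuran experiment, 8 rats each, with lines at the medians and diamonds for rats MC508L and MC511L (controls) and MB549L and MB551L (0.075). Gstp1 and Abcc3 are raised in these 4 rats relative to the others at or below 0.075, whereas Cyp2c12 and Cyp2c11 show no rise in them.

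Not all rats at or below 0.075 were alike in the electrophile genes. On the common scale Gstp1 was 23.8 CPM in MB549L and 21.5 CPM in MB551L, beside 5.44 to 7.76 CPM in the other 6 rats at 0.075. In controls MC508L had 21.6 and MC511L 18.7 CPM beside 6.75 to 8.05 CPM in the other 6. Abcc3 had 11.02 CPM in MC508L and 9.52 CPM in MC511L, against 2.24 to 4.17 CPM in the other 6 controls. No rat at 0.02 exceeded 7.73 CPM of Gstp1 or 3.55 CPM of Abcc3. The labels do not set these animals apart. MB549L and MB551L had the largest total counts at 0.075 (39.7 M and 50.05 M), whereas MC508L and MC511L had 13.97 M and 11.1 M. A relation to depth was not tested. These rats were picked out here from the values, so a wider electrophile difference without MB549L and MB551L follows from that choice. Without them 14 in place of 10 NRF2 list members and 4076 in place of 4078 genes were called, and the median of the mitosis list was 1.76 in place of 1.38.

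Variation within groups followed the rat numbers in the sample titles. The first component of the deviations from the group means, over the 1000 most variable genes of all 32 rats, held 19.9% of that variation. Of the 16 rats in the lower 4 numbers of their group 13 scored above 0, and of the 16 in the higher 4 numbers 15 scored below 0. Genes with the same sign of difference between the higher-numbered and the lower-numbered rats in all 4 groups included the lipase-family genes Pnpla3 (mean log2 difference 1.81) and Pnpla5 (1.53), and Scd (0.79), which were higher in the higher numbers. Dusp1 (-0.96), Igfbp1 (-0.90) and Fgf21 (-0.53) were lower there. What the number stands for is not stated in the labels. Every group held 4 lower and 4 higher numbers by this division, and with the order of the number in the fit 4244 genes were called, 4045 of them among the 4078.

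**Figure D4:**
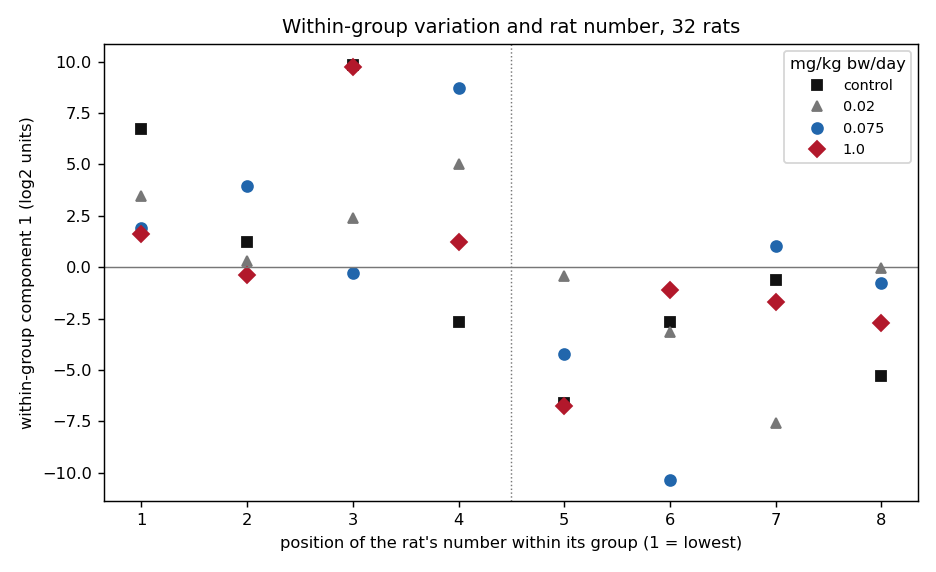
Score of the first within-group component (log2 units) against the position of the rat's number within its group, for 8 rats in each of 4 groups of the 3-methylfuran experiment. Positions 1 to 4 lie mostly above 0 (13 of 16 rats) and positions 5 to 8 mostly below it (15 of 16).

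The same genes were read in the furan experiment, in 7 rats at furan 2.0 and 8 at furan 0.12 mg/kg body weight per day. Furan lacks the methyl group of 3-methylfuran. Doses, library kit and experiment differ, so the values stand side by side without a test of their difference. At furan 2.0 over 0.12, 4634 of 12338 genes were called (37.6%). Log2 fold changes were 4.18 ± 0.41 for 3-methylfuran and 3.41 ± 0.37 for furan in Phgdh, 3.57 ± 0.75 and 3.30 ± 0.36 in Gstp1, and 1.64 ± 0.31 and 1.79 ± 0.33 in Mki67. For Cyp2c11 they were -1.05 ± 0.11 for 3-methylfuran and -1.04 ± 0.22 for furan. These 4 genes were called in both experiments in the same direction.

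Several genes had values far apart. Prlr was 2.55 ± 0.44 for 3-methylfuran and 0.02 ± 0.37 for furan (adjusted p = 0.977 for furan). Egr1 was 1.31 ± 0.34 for 3-methylfuran and -0.02 ± 0.34 for furan (adjusted p = 0.965 for furan), and Aldh1b1 was 1.41 ± 0.16 for 3-methylfuran and 0.36 ± 0.17 for furan (adjusted p = 0.111 for furan). Per1 was called in both, in opposite directions (0.91 ± 0.26 for 3-methylfuran and -0.60 ± 0.11 for furan). Col1a1 was -0.12 ± 0.25 for 3-methylfuran, not called, and 2.02 ± 0.69 for furan (adjusted p = 0.0324), and Cyp7a1 was -0.37 ± 0.38 for 3-methylfuran, not called, and -1.35 ± 0.25 for furan (adjusted p = 0.000791). Cyp2e1 was 0.44 ± 0.11 for 3-methylfuran and -0.19 ± 0.18 for furan, the second not called (adjusted p = 0.431).

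**Figure D5:**
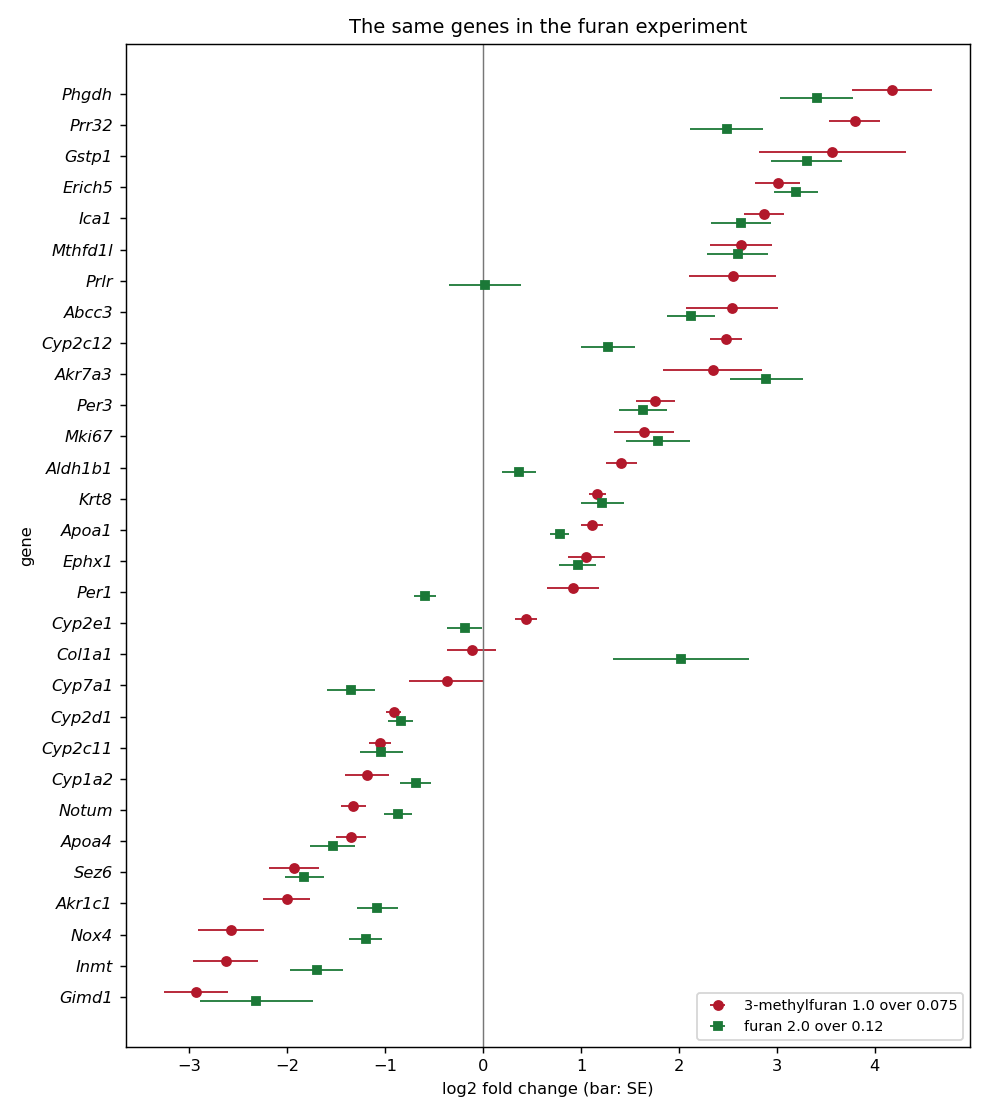
Log2 fold changes with SE bars for 30 genes, in red for 3-methylfuran 1.0 over 0.075 and in green for furan 2.0 over 0.12, ordered by the 3-methylfuran value. Phgdh, Gstp1, Mki67 and Cyp2c11 have like values in both, Prlr lies near 0 for furan, and Col1a1 lies near 0 for 3-methylfuran and at 2.02 for furan.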

How the data were processed

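Per the submitters' processing notes, reads were aligned with STAR 2.7.1a to Rnor 6.0 and counted with featureCounts 2.0.0; DESeq2 1.26.0 is also named. Per the labels, the 3-methylfuran libraries were TruSeq Stranded mRNA and the furan libraries Illumina Stranded mRNA prep; strand setting and annotation release are not stated in these sources. The authors' deposited tables hold a whole-number count per gene and run, and for each dose a fold over controls with an adjusted p-value. At 0.075 some of these folds lay nearer to no change than the CPM means given here. For each rat, counts were added over its 3 runs, which differed by about sampling noise (chi-square per degree of freedom 0.99 to 1.06, against at least 10.49 between rats). Symbols came from the authors' table (18604 of 32883 genes; the others held at most 4 counts). The tests used R 4.3.3 with edgeR 4.0.16: filterByExpr (minimum count 10), TMM, robust quasi-likelihood F test over the 16 rats, and glmTreat for the fold of 1.5; the SE is the estimate over the square root of F, and intervals use 14 degrees of freedom. Whether rats were separate cages or litters is not stated. Simulated counts were used to check the scripts. The rats, the 29 gene lists and the 11 marker lists (770 symbols, 88 unmatched) were chosen with earlier results of these data known. Named genes are 16 followed throughout, the 12 largest called changes each way with at least 2 CPM in the higher group and all 8 rats at 1.0 on the same side of the 0.075 mean, the 8 largest each way likewise with at least 100 CPM, and the 3 smallest adjusted p in each list; other list members and the printed promoters were picked after their values were seen. Some of the genes so named are not reported here. Limma 3.58.1 and DESeq2 1.42.0 served as alternatives. The within-group component used log2 of CPM plus 1 for genes averaging at least 10 CPM.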

Additional observations from a re-analysis of the deposited data

Results flagged for a closer look

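In the groups of 8 rats, 268 sets of values of named genes were examined for an animal far from the other 7, and 26 held one; chance alone marks about 1 in 20 sets, and sets that share an animal are not independent. No cause was tested.

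Rat ME584L of the 1.0 group was highest in 5 genes that were lower at 1.0, and so lay nearest to the 0.075 rats in them. Car3 was 1800 CPM beside 509.9 to 943 CPM in the other 7, and Stac3 was 174 CPM beside 13.2 to 85.6 CPM. Nox4 was 10.3 CPM beside 1.6 to 5 CPM, Sez6 38.6 CPM beside 9.72 to 22.2 CPM, and Mup4, under its 2 identifiers, 14.7 CPM beside 1.34 to 6.97 CPM, and 8.47 CPM beside 0.862 to 3.63 CPM. The T cell marker Cd8a was highest in the same animal (4.31 CPM beside 1.04 to 2.57 CPM).

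Rat ME587L was highest in the electrophile genes Gstp1 (669.7 CPM beside 23.5 to 110.3 CPM) and Abcc3 (72.4 CPM beside 17.6 to 36.5 CPM), and in the mitochondrial transcripts Mt-cyb (6229 CPM beside 3116 to 4409 CPM) and Mt-nd4 (96.3 CPM beside 34.9 to 57 CPM). Rat ME582L was highest in Gpnmb (50.8 CPM beside 19.1 to 32.6 CPM), Fabp4 (4.86 CPM beside 2.33 to 3.51 CPM) and Kif23 (2.35 CPM beside 0.875 to 1.55 CPM), and ME591L in Tenm2 (3.43 CPM beside 0.26 to 1.6 CPM).

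In the 0.075 group, rat MB549L was lowest in the gluconeogenic genes G6pc (211 CPM beside 517 to 703 CPM) and Pck1 (916 CPM beside 1866 to 2505 CPM), and highest in Krt8 (201 CPM beside 134 to 163 CPM), Cldn7 (4.24 CPM beside 1.06 to 2.46 CPM) and Tsx (1.258 CPM beside 0.0506 to 0.54 CPM). Rat MB551L was highest in Akr1c1 (93.1 CPM beside 28.4 to 55.9 CPM) and lowest in Afp (20.7 CPM beside 23.4 to 25.4 CPM). Single values also stood apart for Gucy2c (MB541L, 0.202 CPM beside 0 to 0.0711 CPM), Col6a2 (MB546L, 32.8 CPM beside 20.3 to 25.7 CPM), Tagln (MB542L, 7.38 CPM beside 3.49 to 5.33 CPM) and Mthfd1 (MB548L, 137 CPM beside 159.6 to 177 CPM).

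Per1 moved in opposite directions: all 8 rats at 3-methylfuran 1.0 lay above the 0.075 mean (log2 fold change 0.91), and all 7 rats at furan 2.0 lay below the furan 0.12 mean (-0.60 ± 0.11). The difference between the experiments was not tested.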

How the results depend on the processing

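The count of 4078 called genes stayed within 1.5 times under RLE size factors (4080), no filter (4175), DESeq2 (4212), limma voom (4069), all 32 rats in the fit (4166), thinning to the smallest library (3770), run 1 alone (3008) and each rat left out (3626 to 4119). Library totals without TMM gave 6336 (89.2% of them higher, against 48.5%), and the 4 highest-numbered rats of each group, an alternative chosen after seeing the data like the others that use rat numbers or named rats, gave 1731, with 98 in place of 361 past a fold of 1.5. With each rat left out that fold test called 294 to 400 genes. The number of genes whose 2 groups do not overlap was 1094, with 1778 without TMM, 728 from run 1 alone and 1092 to 1291 with a rat left out. Without TMM, lower calls were 5 in place of 13 for fatty acid oxidation, 5 in place of 10 for growth hormone genes and 6 in place of 13 for acute phase. Higher calls for fatty acid oxidation were 8 without TMM in place of 2. In the 4 highest-numbered rats of each group there were 2 NRF2, 10 DNA replication and 9 mitosis genes higher, and 10 P450, 8 bile acid, 3 fatty acid oxidation and 3 acute phase genes lower. The 4 lowest-numbered rats, as few, gave 3167 calls in all, with 11 NRF2, 14 DNA replication and 28 mitosis genes higher and 13 acute phase genes lower. With each rat left out the lists kept 10 to 11 NRF2, 17 to 20 DNA replication and 28 to 28 mitosis genes higher, and 15 to 17 P450, 13 to 14 bile acid, 11 to 14 fatty acid oxidation, 9 to 10 growth hormone, 12 to 13 acute phase and 9 to 12 interferon genes lower. Furan 2.0 over 0.12 gave 8162 calls without TMM, and 3-methylfuran 0.02 over controls gave 13 without a filter and 29 with DESeq2. Of the 134 named genes 117 kept direction and call under all 23 planned settings other than library totals. Those settings do not include the sets of 4 rats. In the 4 highest-numbered rats of each group 40 named genes kept direction but lost their call. Abcc3, Ephx1, Akr7a3, Aldh1a7, Gclc and Mki67 were among these. In the 4 lowest-numbered rats 20 did so. Signs turned for Col1a1 (0.121 without TMM, 0.048 from run 1 alone, 0.027 in the 4 lowest-numbered rats), Cyp7a1 (0.064 in the 4 highest-numbered), and, without TMM, Alb (0.024), Arntl (0.006), Ndufb9 (0.007), Cox7b (0.001), Psma5 (0.028) and Psmd4 (0.098). The cause of these shifts was not tested. No paired analysis was possible because no rat number is shared between the groups. Intervals cover the spread between these 16 rats only, and genes under about 1 CPM, such as Gucy2c at 0.075, rest on a few counts.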
